A study of Homo sapiens with 12 samples.

Results

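MUM2B is labelled as a cell line of human uveal melanoma, the melanoma of the pigmented tissue of the eye. It was compared here with and without overexpression of CANT1 (CASC15-New-Transcript 1), a long noncoding RNA transcribed from the CASC15 locus. Of the 12 arrays of the study, 6 carry the cell line label MUM2B and were taken, 3 of wild type cells and 3 of cells with CANT1 overexpressed. The other 6 arrays hold the same design in OCM1, a second uveal melanoma line, and 4 of them are used below for 1 test of the difference between the lines. Each array measured biotin-labelled RNA from total RNA with Affymetrix probe sets for the whole human transcriptome.

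The MUM2B arrays form 2 sets that were kept apart. The first set is replicate 1, with 1 wild type and 1 CANT1 array. Its label describes the overexpressing cells as selected with puromycin. The second set is replicates 2 and 3, with 2 wild type and 2 CANT1 arrays, whose labels give a medium with 10% fetal bovine serum and do not mention selection. The controls of both sets are wild type cells and no empty vector is described, so CANT1, the vector that carried it and the selection cannot be told apart. The labels do not say whether replicates are separate cultures or whether the overexpressing cells are a clone. The p-values below thus rest on the variation from array to array, part or all of which could be technical. Arrays are named by group and replicate (wild type 2, CANT1 3).

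Uveal melanomas arise from neural crest derived pigment cells and usually carry an activating mutation in a G protein alpha subunit, which drives the ERK kinase cascade and YAP. The labels used here do not say whether MUM2B carries such a mutation. Uveal melanomas spread through the blood, mostly to the liver, and aggressive lines such as MUM2B are known for forming matrix-rich, vessel-like networks in culture. The CASC15 locus lies beside SOX4 on chromosome 6, and its transcripts have been studied as tumour modifiers in melanoma and in neuroblastoma. A long noncoding RNA can act on genes beside its own locus or, through bound proteins, on distant ones, and an array measures only the steady level of each transcript.

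The 4 arrays of replicates 2 and 3 were alike in RNA quality and close in their profiles. Within a group, replicates 2 and 3 correlated at r = 0.994 for wild type and 0.993 for CANT1 over the 11410 genes tested. Between the groups the correlation ran from 0.963 to 0.987. The replicate 1 arrays stood apart from them in the RNA quality measure of the array, the ACTB signal of the 3′ over the 5′ probe sets, at log2 2.33 on wild type 1 and 2.15 on CANT1 1 against 0.473 to 0.584 on the others. Wild type 1 correlated less with wild type 2 and 3 (0.904 and 0.920) than with CANT1 2 and 3 (0.941 and 0.949). CANT1 1 correlated at 0.961 and 0.970 with wild type 2 and 3 and at 0.967 and 0.956 with CANT1 2 and 3. The only probe set that names CASC15 was dim on every array and need not lie in CANT1, so the labels of neither set could be checked against the overexpressed RNA. Pigment cell markers were at or near background. Of MITF, PMEL, MLANA, TYR, TYRP1, DCT, SOX10, S100B, EDNRB and KIT, 9 were measured and none had a signal above 197 on any MUM2B array. These levels do not identify the cells as pigment cells, so the name uveal melanoma rests on the label. PMEL, a melanosome protein gene, was the 1 called of 4 tested (0.38 ± 0.10), and the other 3 were below zero. It was no longer called when wild type 2, wild type 3 or CANT1 3 was left out. KRT7, a keratin of simple epithelia, read 12357 and 12280.3 on wild type 2 and 3 and 9179 and 7753 on CANT1 2 and 3, and its fall of 0.54 ± 0.11 lost its call without wild type 2 or CANT1 3 (adjusted p up to 0.0734).

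All values are signals scaled to a common array mean, and differences are CANT1 minus wild type on the scale of log2 of the signal plus 32, on which the fold of a dim gene comes out too small. Values joined by "and" are replicates 2 and 3 in that order, ± is the standard error of the difference from limma with n = 2 arrays a group, and a gene is called where limma's p-value, adjusted by Benjamini-Hochberg over all genes tested, is below 0.05. Only the 4 arrays of replicates 2 and 3 enter that test. Replicate 1 has 1 array a side and no test of its own, and its values are given beside the genes that matter most. Counts over a gene list are to be read beside the shares of all genes tested, 13.1% called higher and 9.36% lower. They cover only members whose signal reached 100 on 2 or more of the 4 arrays. A dim member that passed through the group where it is high had to differ, so each list count is a description. The same holds for single genes: 90 of the genes called higher below had both wild type signals under 100 and entered the test through the CANT1 arrays alone. XIST, EGR1, IGDCC4, GBP2, ITGA10, KLF8 and TFAP2A are among them, and their differences are given as descriptions. With no filter on dim genes limma's adjusted p for these genes ran from 0.00107 (XIST) to 0.0162 (TFAP2A).

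On replicates 2 and 3, CANT1 cells differed from wild type in a large share of the transcriptome. Limma called 1494 genes higher (13.1% of 11410) and 1068 lower (9.36%), together 22.5% of the genes tested. The increases were steeper than the decreases, with 172 increases but 20 decreases of at least 2-fold. The wild type and CANT1 values of a gene often did not overlap: both CANT1 arrays were above both wild type arrays for 33.4% of genes and below for 31.5%. The counts moved with the arrays kept. Without wild type 2 limma called 432 genes higher and 179 lower, without wild type 3 it called 549 lower, and without CANT1 3 it called 739 higher and 437 lower.

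Most genes called had the opposite sign on the replicate 1 pair. Of the 2562 genes called, 296 (11.6%) had the same sign on replicate 1, made up of 208 increases (13.9% of increases) and 88 decreases (8.24% of decreases). Over all genes tested 42.3% were above zero on replicate 1 and 50.3% on replicates 2 and 3. The median replicate 1 difference was −0.43 over the genes called higher and 0.52 over those called lower. Across genes, which are not independent, the difference of replicate 1 correlated at r = −0.632 with that of replicates 2 and 3, whereas the differences formed from replicate 2 and from replicate 3 correlated at r = 0.795. A test of the difference between the sets, in which the single replicate 1 arrays are assumed to vary like the others, called 2026 genes with a higher and 2032 with a lower difference on replicate 1 (33.5% of 12105). On deposited values without scaling those counts were 2165 and 1428. With all 6 arrays in 1 fit and a term for the set, 0 genes were called (limma, 461 at unadjusted p under 0.05), so every CANT1 call below belongs to replicates 2 and 3 alone. The scatter of both differences shows most coloured points at the upper left and lower right.

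**Figure D1:**
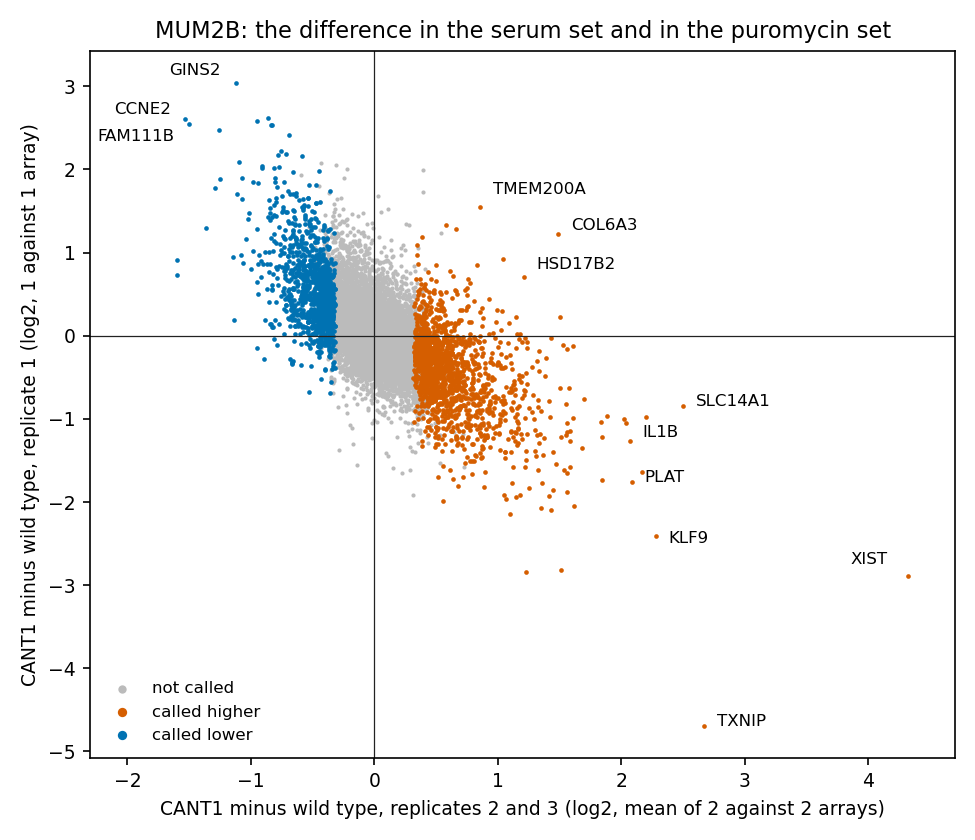
Each point is 1 of 11410 genes, placed by the CANT1 minus wild type difference (log2) on replicates 2 and 3 on the x axis and on replicate 1 on the y axis. Genes called by limma on replicates 2 and 3 are orange (1494 higher) or blue (1068 lower), and the cloud slopes downward, with TXNIP at 2.67 and −4.69 and GINS2 at −1.12 and 3.04.

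The largest increase was of XIST, the long noncoding RNA that coats and silences an X chromosome. Its signal was 79.9 and 52.7 on the wild type arrays and 1543 and 2387 on the CANT1 arrays. Both CANT1 arrays were above both wild type arrays, as for 33.4% of all genes tested. The difference was 4.33 ± 0.20, and both wild type signals were dim. Both bright probe sets for XIST gave an increase (3.85 and 4.33). On replicate 1 the order was the reverse, with 576 on wild type and 49.8 on CANT1. XIST was also higher with CANT1 on the OCM1 arrays of replicates 2 and 3, by 5.88.

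Genes of the X chromosome did not follow XIST as a group. In a list of 674 genes made after the values were seen, 51 of 357 X-linked genes tested rose (14.3%, against 13.1% of all genes) and 36 fell (10.1%, against 9.36%), with a median of 0.037 beside 0.0015 over all genes. Without wild type 2 the counts were 11 and 5, without wild type 3 there were 11 decreases, and without CANT1 3 they were 21 and 14. Without probe sets that can bind related transcripts, 22 fell. Of 18 genes of the X inactivation centre and its cofactors or known to escape silencing, 2 rose and 2 fell. These shares were 11.1% each way, against 13.1% and 9.36% of all genes, and XIST was 1 of the 2 increases. KDM5C, a histone demethylase gene that escapes silencing, rose by 0.56 ± 0.14 (probe sets −0.039 to 0.56), while the XIST-binding protein genes HNRNPU (−0.40 ± 0.11) and YY1 (−0.40 ± 0.11) fell, with probe sets of both signs (−0.40 to 0.28 and −0.40 to 0.64). The calls of these 3 genes ended without wild type 2, without wild type 3, without CANT1 3 or, for HNRNPU and YY1, without probe sets that can bind related transcripts, with adjusted p up to 0.105, 0.200 and 0.501.

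Several other large increases were of genes in no list below, apart from SLC14A1, which is also counted among the solute carriers. SLC14A1, the urea transporter of the Kidd blood group, had signals of 207 and 265 on the wild type arrays and 1288 and 1691 on the CANT1 arrays and rose by 2.50 ± 0.15 (limma adjusted p = 0.000272). MTSS1, an actin-binding scaffold known as a metastasis suppressor, read 242 and 347 on the wild type arrays and 1300.4 and 1538 on the CANT1 arrays (2.17 ± 0.16, adjusted p = 0.000286). GSN, which encodes the actin-severing protein gelsolin, rose by 1.70 ± 0.17 from 212 and 311 to 815 and 1010.0. CXCR4, the receptor of the chemokine CXCL12, rose by 1.83 ± 0.20 from dim signals of 56.3 and 100.1. In all 4 genes every CANT1 array exceeded every wild type array of replicates 2 and 3, as in 33.4% of all genes tested. All 4 were lower with CANT1 on replicate 1 (−0.85, −1.64, −0.76 and −1.03). RFX8, FEZ1 and IGDCC4, the remaining increases among the 15 largest that no list below holds, rose by 2.02 ± 0.22, 1.88 ± 0.16 and 1.84 ± 0.20.

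IGFBP3 and EDN1 had the largest decreases. IGFBP3, which binds insulin-like growth factors in the extracellular space, fell 3.02-fold, from 499 and 371 to 125 and 117 (−1.60 ± 0.14, limma adjusted p = 0.000744). EDN1, the precursor of the vasoconstrictor peptide endothelin, fell by 1.60 ± 0.17 from 398 and 452 to 153 and 91.1 (adjusted p = 0.00149). SOCS2, a feedback inhibitor of cytokine and growth hormone receptors, fell by 1.13 ± 0.11, and SPP1, the matrix cytokine osteopontin, by 1.04 ± 0.15. Both CANT1 arrays were below both wild type arrays for each of them, as for 31.5% of all genes tested. On replicate 1 IGFBP3 (0.73), EDN1 (0.92) and SPP1 (1.16) were higher with CANT1, and SOCS2 differed by 0.19. FERMT1, a kindlin that activates integrins, fell by 1.26 ± 0.17, and DLEU2, a noncoding host of microRNAs that restrain the cell cycle, by 1.25 ± 0.12. SLC26A2, a sulphate transporter used for proteoglycan sulphation, fell by 1.08 ± 0.13 from 3068 and 3152. The potassium channel gene KCNMA1 (−1.07 ± 0.16) was at 0.0055 once probe sets that can bind related transcripts were left out. TRIM7, CENPS and PDSS1 completed the 15 largest decreases outside the lists below (−1.15 ± 0.14, −1.12 ± 0.15 and −1.10 ± 0.17). The bright probe sets of TRIM7 ran from −1.15 to 0.16 and those of PDSS1 from −1.10 to 0.44, so both genes had probe sets of either sign.

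**Figure D2:**
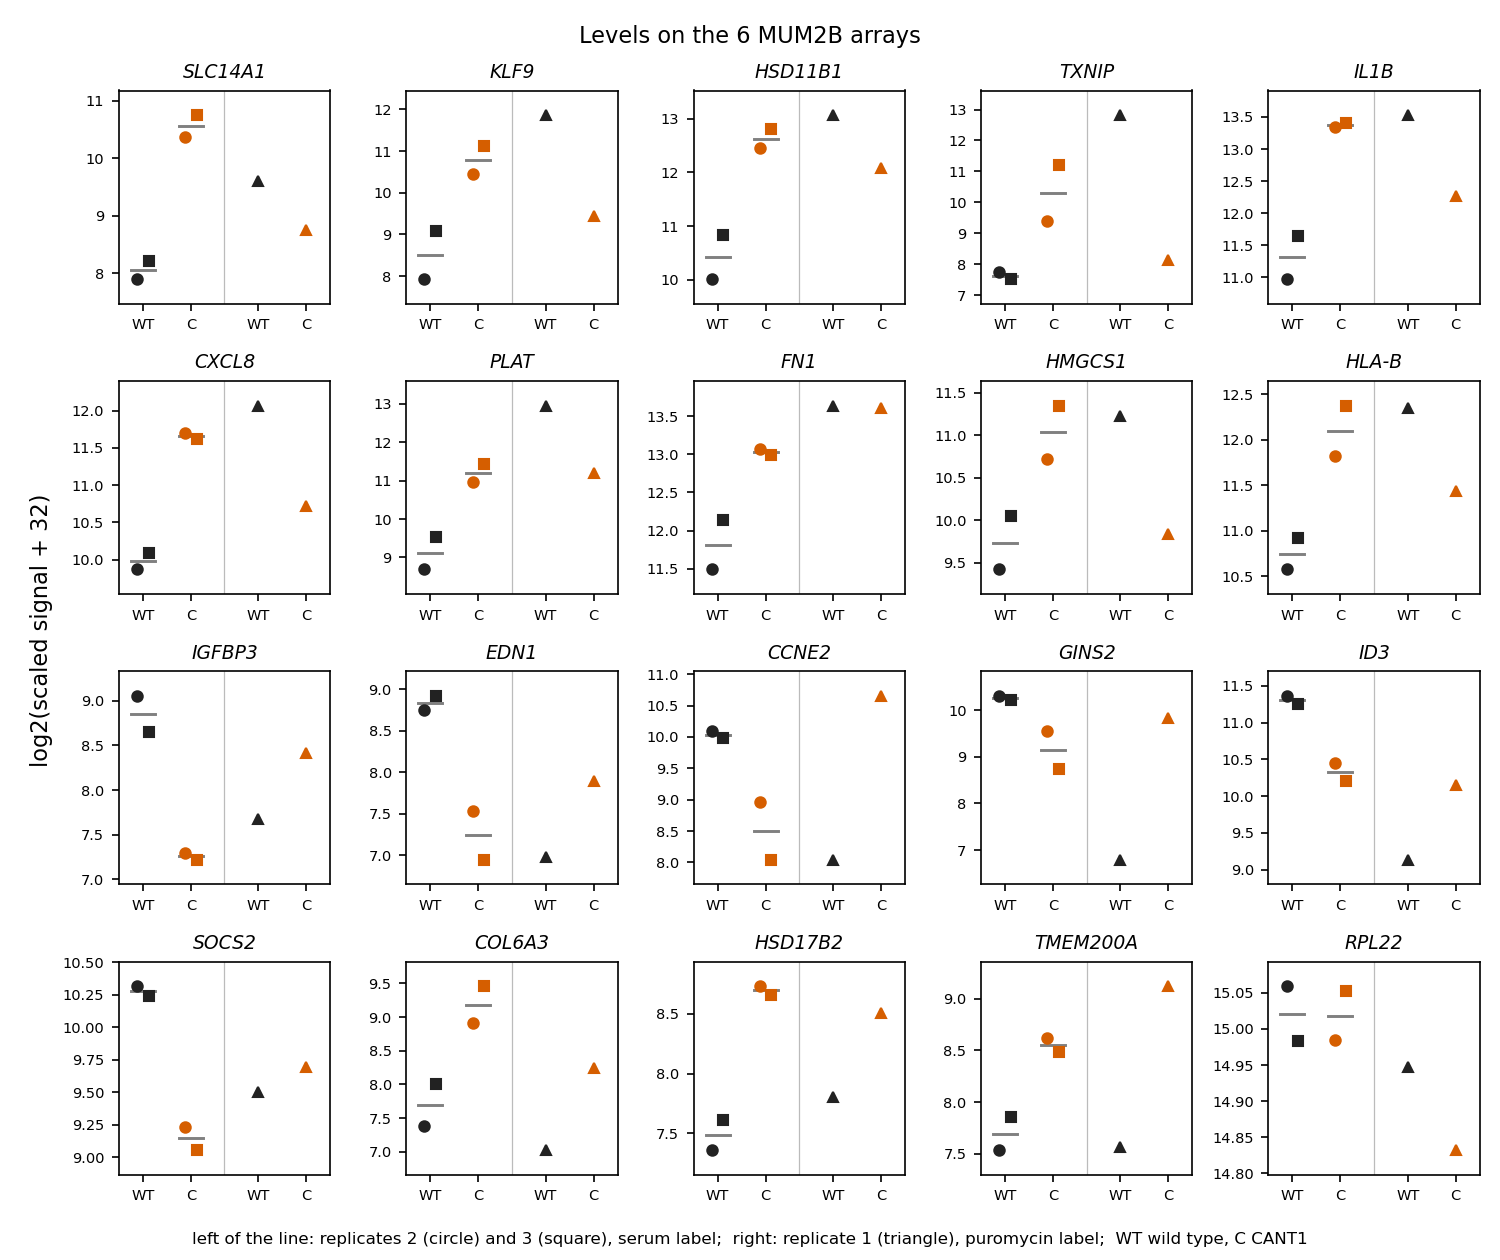
Levels of 20 genes on each of the 6 MUM2B arrays, as log2 of the scaled signal plus 32, with replicates 2 (circles) and 3 (squares) left of the grey line, replicate 1 (triangles) right of it and bars at the group means. CXCL8 reads 903 and 1061 (signal) on wild type 2 and 3 and 3286 and 3118 on CANT1 2 and 3 but 4259 on wild type 1 and 1656 on CANT1 1, while COL6A3, HSD17B2 and TMEM200A are higher with CANT1 in both sets and RPL22 is level.

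Inflammatory cytokines and the NF-κB pathway were higher in CANT1 cells. NF-κB dimers are held in the cytoplasm by inhibitors of the IκB family, and once released they switch on cytokine genes together with the genes of their own inhibitors. Of 19 cytokine and chemokine genes tested (32 listed) 11 rose and 0 fell, with a median of 0.56, and of 20 NF-κB subunit and feedback genes (24 listed) 10 rose and 0 fell, with a median of 0.42. Over all genes 13.1% rose, 9.36% fell and the median was 0.0015. On replicate 1 the medians of the lists were −0.45 and −0.28. Without wild type 2 the increases numbered 6 and 6, and without CANT1 3 there were 6 cytokine increases.

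IL1B, the precursor of the pyrogenic cytokine interleukin-1β, read 1975 and 3166 on the wild type arrays and 10374 and 10814 on the CANT1 arrays (2.07 ± 0.19, limma adjusted p = 0.000872). IL1A, its relative that acts as an alarm signal of damaged cells, rose by 0.86 ± 0.12 from 2633 and 3065. CXCL8, the neutrophil chemokine interleukin-8, rose by 1.68 ± 0.11 from 903 and 1061 to 3286 and 3118 (adjusted p = 0.000272). The chemokine CXCL2 rose by 1.03 ± 0.13 from 202 and 231 to 536 and 422. For these 4 genes every CANT1 array lay above both wild type arrays, as for 33.4% of all genes tested. On replicate 1, IL1B (−1.27), IL1A (−0.68) and CXCL8 (−1.35) were lower with CANT1 and CXCL2 was higher (0.30).

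The inhibitors and subunits of NF-κB showed smaller increases. NFKBIA, the inhibitor IκBα, rose by 0.85 ± 0.11 from 1443 and 1622 to 2635 and 2926. TNFAIP3, the ubiquitin-editing inhibitor A20, rose by 0.94 ± 0.14 from the dim signals 72.5 and 107. The nuclear regulator NFKBIZ (0.81 ± 0.13), the subunit RELB (0.84 ± 0.12) and the A20 partner TNIP1 (0.81 ± 0.14) followed, at limma adjusted p from 0.00279 to 0.00647 for the 5 genes. All 5 were lower with CANT1 on replicate 1, between −0.95 for NFKBIZ and −0.31 for TNIP1. On the OCM1 arrays of replicates 2 and 3 NFKBIA was at −0.026 and NFKBIZ at −1.20.

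Promoters of 4 of these genes are shown because they hold the κB motif, the letters GGNNTTNCC read on either strand, which NF-κB dimers are known to bind. The sequences are the 100 bases before the annotated start from RefSeq on GRCh38.p14, written 5′ to 3′ on the strand of the gene, with the motif in capitals. They lie at chr4:73740469-73740568 (plus strand) for CXCL8, chr4:74099196-74099295 (minus) for CXCL2, chr6:137867159-137867258 (plus) for TNFAIP3 and chr14:35404750-35404849 (minus) for NFKBIA.
CXCL8: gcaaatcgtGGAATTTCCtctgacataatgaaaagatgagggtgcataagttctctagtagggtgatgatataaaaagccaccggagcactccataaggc
CXCL2: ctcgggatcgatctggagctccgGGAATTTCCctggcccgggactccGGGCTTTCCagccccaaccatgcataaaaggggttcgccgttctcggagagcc
TNFAIP3: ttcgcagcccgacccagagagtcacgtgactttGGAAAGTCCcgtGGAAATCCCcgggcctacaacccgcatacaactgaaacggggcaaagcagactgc
NFKBIA: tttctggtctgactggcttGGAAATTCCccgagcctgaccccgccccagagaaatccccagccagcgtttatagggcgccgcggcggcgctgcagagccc
CXCL8 and NFKBIA hold 1 match each in these stretches and CXCL2 and TNFAIP3 hold 2, the nearest of them 91, 81, 53 and 55 bases before the start. In the 250 bases before the start the motif occurred in 14 of the 29 genes of both lists that the promoter table holds (48.3%). It occurred in 16.9% of the 9411 promoters of genes tested and in 14.8% of all 27305 promoters. Among the genes called it occurred in 18.9% of those higher and 18.8% of those lower, and in 32.6% of the 46 replication gene promoters described further on. A match is a stretch of letters and not a measured binding site.

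Some receptors of such signals rose as well, 33.3% of their list rising and 3.70% falling, against 13.1% and 9.36% of all genes. Of 27 genes for cytokine receptors and their STAT feedback (36 listed) 9 rose and 1 fell, the decrease being SOCS2, with 2 increases left without wild type 2. IFNGR2, a chain of the interferon-γ receptor, rose by 0.75 ± 0.11 from 885 and 1003 to 1530.0 and 1695. OSMR (1.07 ± 0.21), IL15RA (1.01 ± 0.19) and LIFR (0.84 ± 0.17), receptors of oncostatin M, interleukin-15 and LIF, were no longer called without wild type 2 (adjusted p = 0.0605, 0.0508 and 0.0660). Of 8 acute phase, complement and protease inhibitor genes tested (27 listed) 3 rose and 0 fell. They were CD55, which protects cells from complement (1.31 ± 0.16, from 1181 and 1485), the antitrypsin gene SERPINA1 (1.15 ± 0.14) and the elastase inhibitor SLPI (0.88 ± 0.11). SERPINA1 differed by 0.23 on replicate 1, and CD55 and SLPI by −1.45 and −1.35.

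Genes of the interferon response and of antigen presentation by HLA class I were higher. Interferons induce antiviral effectors and the machinery that cuts peptides, carries them into the endoplasmic reticulum and loads them on HLA class I. Of 29 interferon-stimulated genes tested (40 listed) 13 rose and 0 fell (median 0.37, replicate 1 −0.29). Of 21 class I and peptide loading genes 9 rose and 1 fell (median 0.29, replicate 1 −0.18), and 5 rose without wild type 2 and 5 without probe sets that can bind related transcripts. Of 6 class II genes tested (13 listed) 0 passed by limma, with CIITA, their master regulator, at −0.021 ± 0.11.

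ISG20, an exonuclease that degrades viral RNA, read 95.3 and 119 on the wild type arrays and 342 and 428 on the CANT1 arrays and rose by 1.58 ± 0.13 (limma adjusted p = 0.000744). IFI27 rose by 1.41 ± 0.15 from 356 and 499.7 to 1216 and 1142. IFIH1, the RNA sensor MDA5, rose by 1.28 ± 0.17, the guanylate-binding gene GBP2 by 1.51 ± 0.24 and the membrane protein gene IFITM1 by 1.18 ± 0.17. These transcripts were dim in wild type 2 and 3, GBP2 at 22.9 and 45.5. GBP2 was also 1 of the 8 largest decreases of replicate 1, at 999.9 on wild type and 114 on CANT1.

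In the class I pathway HLA-B itself rose by 1.35 ± 0.18, from 1495 and 1907 to 3581 and 5278 (limma adjusted p = 0.00301), and HLA-C by 0.89 ± 0.13 and HLA-E by 0.88 ± 0.13. Because class I genes are near-identical copies, their probe sets may share signal. PSMB9, the interferon-inducible immunoproteasome subunit, rose by 1.53 ± 0.19 from 177 and 307, and TAP1, the peptide transporter, by 0.96 ± 0.13. PSMB9 differed by −0.11 on replicate 1 and HLA-B by −0.91. Of 33 proteasome subunits 2 rose (6.06%, against 13.1% of all genes) and 1 fell (3.03%, against 9.36%). The 2 increases were PSMB9 and its partner PSMB8 (0.52 ± 0.10, no longer called without wild type 2).

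Many genes of the glucocorticoid response and of the resting state rose, TXNIP by most. TXNIP binds thioredoxin and limits glucose uptake, and its transcript is known to follow glucose supply and to fall in growing cells. Its signal was 182 and 153 on the wild type arrays and 641 and 2350.4 on the CANT1 arrays, with the CANT1 replicates far apart, and the difference was 2.67 ± 0.44 (limma adjusted p = 0.00526). Without CANT1 3 it was 1.76 and without CANT1 2 it was 3.58. On replicate 1 TXNIP showed the largest decrease of any gene tested, from 7201 to 248 (−4.69). Across 5 bright probe sets the difference on replicates 2 and 3 ran from 2.04 to 3.22.

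Of 24 glucocorticoid response and steroid dehydrogenase genes tested 11 rose and 1 fell (median 0.25, replicate 1 −0.66), and 5 rose without wild type 2. HSD11B1, the enzyme that regenerates cortisol from cortisone, read 1002 and 1805 on the wild type arrays and 5595 and 7103 on the CANT1 arrays (2.20 ± 0.23, limma adjusted p = 0.00145). KLF9, a zinc finger factor induced by glucocorticoids, read 212 and 510.3 on the wild type arrays and 1367 and 2194 on the CANT1 arrays (2.28 ± 0.33, adjusted p = 0.00358). HSD17B2, which inactivates estradiol and testosterone, rose by 1.21 ± 0.12 from 132 and 163 to 393 and 373. HSD17B2 was higher with CANT1 on replicate 1 too, at 192 on wild type and 333 on CANT1, whereas HSD11B1 (−0.98) and KLF9 (−2.41) were lower.

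Of 22 genes linked to quiescence or induced by FOXO factors 14 rose and 0 fell (median 0.43, replicate 1 −0.62). The list shares TXNIP and BCL6 with the glucocorticoid list. The increases numbered 7 without wild type 2, 8 without CANT1 3 and 9 on deposited values. TP53INP1, a stress protein gene that supports autophagy, rose by 1.54 ± 0.24 from 41.7 and 101 to 221 and 296, where wild type 2 lay near background. The transcriptional repressor gene BCL6 rose by 1.15 ± 0.16 from 481 and 618 to 1066 and 1460.2, the MYC antagonist gene MXI1 by 1.06 ± 0.15 and YPEL5 by 1.15 ± 0.15. Krüppel-like factor genes as a family followed, with 7 of 13 tested called higher and 0 lower (median 0.41). KLF2, a factor of resting lymphocytes and endothelium, rose by 0.95 ± 0.10 from 2273 and 2389 to 4601 and 4454, and KLF8 rose by 1.15 ± 0.13 from 49.4 and 55.6.

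In the wider oxidative stress list 4 of 29 genes rose (13.8%, against 13.1% of all genes) and 5 fell (17.2%, against 9.36%). Fewer of them were called without wild type 2. GPX3, a secreted glutathione peroxidase, rose by 0.69 ± 0.11, and TXNRD2, the mitochondrial thioredoxin reductase, fell by 0.67 ± 0.10. NQO1, an NRF2 target that reduces quinones, fell by 0.70 ± 0.13 from 11139.9 and 9944 to 7288 and 5731 (adjusted p = 0.0647 without wild type 2). Aldo-keto reductases of steroid metabolism rose, AKR1C2 by 1.22 ± 0.11, AKR1C3 by 0.90 ± 0.11 and AKR1C1 by 0.71 ± 0.10, and their sequences are near-identical, so their probe sets may share signal.

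Transcripts known to respond to ERK were higher in CANT1 cells, while ERK activity itself was not measured. ERK phosphorylation switches on early response factors within minutes and, more slowly, phosphatases and Sprouty proteins that shut the pathway off. Of 32 genes tested 17 rose and 0 fell (median 0.36, replicate 1 −0.28), and 8 rose without wild type 2. EGR1, an early response zinc finger factor, read 65.4 and 89.1 on the wild type arrays and 469 and 365 on the CANT1 arrays (2.04 ± 0.15), with both wild type signals dim, and its 4 bright probe sets ran from 0.033 to 2.05. PHLDA1, a target of ERK in many tumours, rose by 1.55 ± 0.18 from 2241 and 3177 to 6922 and 8939, with probe sets from −0.033 to 1.55.

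The feedback arm of the pathway was represented by DUSP5, a nuclear ERK phosphatase (1.23 ± 0.12, from 572 and 631 to 1326 and 1592), and by the Sprouty genes SPRY4 (1.17 ± 0.14) and SPRY2 (0.93 ± 0.12). Both CANT1 arrays were above both wild type arrays for these genes, as for 33.4% of all genes tested. All 5 ERK-responsive genes named were lower with CANT1 on replicate 1, from −0.83 for SPRY2 to −1.49 for DUSP5. EGR1 and SPRY4 were higher with CANT1 on the OCM1 arrays of replicates 2 and 3 as well (2.35 and 0.99). Of 19 YAP and TEAD genes, the other branch known downstream of mutant G proteins in this tumour, 2 rose and 1 fell, below the 13.1% and 9.36% of all genes, with 0 higher and 0 lower without wild type 2 or without CANT1 3, and the target gene CRIM1 fell by 0.39 ± 0.10 (adjusted p up to 0.136 with 1 array left out).

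Many genes for adhesion to and building of the extracellular matrix rose. Integrins are paired receptors that anchor cells to laminin, collagen and fibronectin. Of 22 integrin and laminin genes tested (29 listed) 11 rose and 0 fell (median 0.48, replicate 1 −0.52), 4 without wild type 2 and 7 without CANT1 3. Of 32 collagen and other matrix genes tested (48 listed) 14 rose and 2 fell (median 0.25, replicate 1 −0.068), and 7 rose without wild type 2.

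ITGB3, the β3 chain of the vitronectin receptor and a marker of melanoma invasion, read 127 and 249 on the wild type arrays and 593 and 889 on the CANT1 arrays (1.84 ± 0.25, limma adjusted p = 0.00313). ITGB2, a chain otherwise known from leukocytes, rose by 1.19 ± 0.11 from 124 and 131 to 303 and 362. ITGA10 rose by 1.10 ± 0.14 and the collagen receptor chain ITGA2 by 0.91 ± 0.16. On replicate 1 all 4 were lower with CANT1, ITGA10 by −2.15, which is 1 of the 8 largest decreases there. The PECAM1, TEK and CLDN5 transcripts of endothelial cells were not called or too dim to test, although CDH5, the endothelial cadherin that MUM2B is known to express, read 2385 and 2957 on wild type and rose by 0.72 ± 0.13 (adjusted p = 0.0541 without wild type 2).

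FN1, the matrix glycoprotein fibronectin, read 2845 and 4463 on the wild type arrays and 8588 and 8126 on the CANT1 arrays (1.22 ± 0.18, limma adjusted p = 0.00368). It read 12715 on wild type 1 and 12467 on CANT1 1, a level above both groups of the other set. COL13A1, a transmembrane collagen, rose by 1.50 ± 0.21 and the fibulin gene FBLN1 by 1.31 ± 0.12. COL6A3, a chain of the microfibrillar collagen VI, rose by 1.49 ± 0.22 from 136 and 225 to 451 and 669.7 and was higher on replicate 1 too (98.1 on wild type, 271 on CANT1). For these genes both CANT1 arrays of replicates 2 and 3 were above both wild type arrays, as for 33.4% of all genes tested.

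Enzymes that degrade matrix showed a few clear increases. PLAT, the tissue plasminogen activator, read 381 and 713 on the wild type arrays and 1967 and 2738 on the CANT1 arrays (2.09 ± 0.25, limma adjusted p = 0.00203), and each of its 7 bright probe sets gave an increase (1.27 to 2.20). PLAU, the urokinase that melanoma cells use for invasion, read 10034 and 10746 on wild type and 13253 and 13004 on CANT1, and its difference of 0.34 ± 0.10 was no longer called when any 1 array was left out (adjusted p up to 0.244). SERPINE2, an inhibitor of both proteases, rose by 0.93 ± 0.10 and differed by 0.44 on replicate 1. PLAT, PLAU and SERPINE2 were the 3 genes called of 9 tested in the plasminogen list. Of 24 metalloprotease and inhibitor genes tested (36 listed) 6 rose and 1 fell, with 4 rising without wild type 2 and 4 without wild type 3. MMP2, a gelatinase, rose by 1.34 ± 0.20 from 177 and 204 to 406 and 687, its membrane-bound activator MMP14 by 0.71 ± 0.12, and ADAM8 by 1.34 ± 0.12.

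Sterol synthesis genes rose. The transcription factor SREBF2 is known to drive nearly every enzyme between acetyl-CoA and cholesterol when membranes lack sterol, and INSIG1 to retain it in the endoplasmic reticulum. Of 30 sterol and fatty acid synthesis genes tested (36 listed) 17 rose and 0 fell, with a median of 0.42, against −0.50 on replicate 1. The count was 3 without wild type 2, 7 without CANT1 3 and 10 on deposited values or with no filter on dim genes.

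HMGCS1, the entry enzyme of the mevalonate pathway, read 653 and 1024 on the wild type arrays and 1655 and 2574 on the CANT1 arrays (1.30 ± 0.23, limma adjusted p = 0.00645). MSMO1, a sterol oxidase, rose by 1.22 ± 0.17 from 1660.0 and 2192 to 3852 and 5240.5. INSIG1 rose by 1.12 ± 0.19 from 847 and 1352 to 2201 and 2544. The isomerase gene IDI1 (0.87 ± 0.17) and the squalene epoxidase gene SQLE (0.76 ± 0.15) rose too, but were no longer called without wild type 2 (adjusted p = 0.0633 and 0.0782). On replicate 1 these 5 genes differed by −1.58 to −1.05, as MSMO1 went from 11343 on wild type to 3769.9 on CANT1. In OCM1 they differed by −1.53 to −0.49 on replicates 2 and 3, the opposite sign to MUM2B. The cholesterol exporter of the lysosome, NPC1, rose by 1.14 ± 0.18, together with the autophagy genes GABARAPL1 (1.44 ± 0.24) and WIPI1 (1.32 ± 0.20). The lysosome and autophagy list as a whole had 5 of 29 genes higher (17.2%, against 13.1%) and 0 lower. The increases numbered 3 without wild type 2, 3 without wild type 3, 3 without CANT1 3, 8 without CANT1 2 and 9 with the 8 arrays of both lines in the fit.

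**Figure D3:**
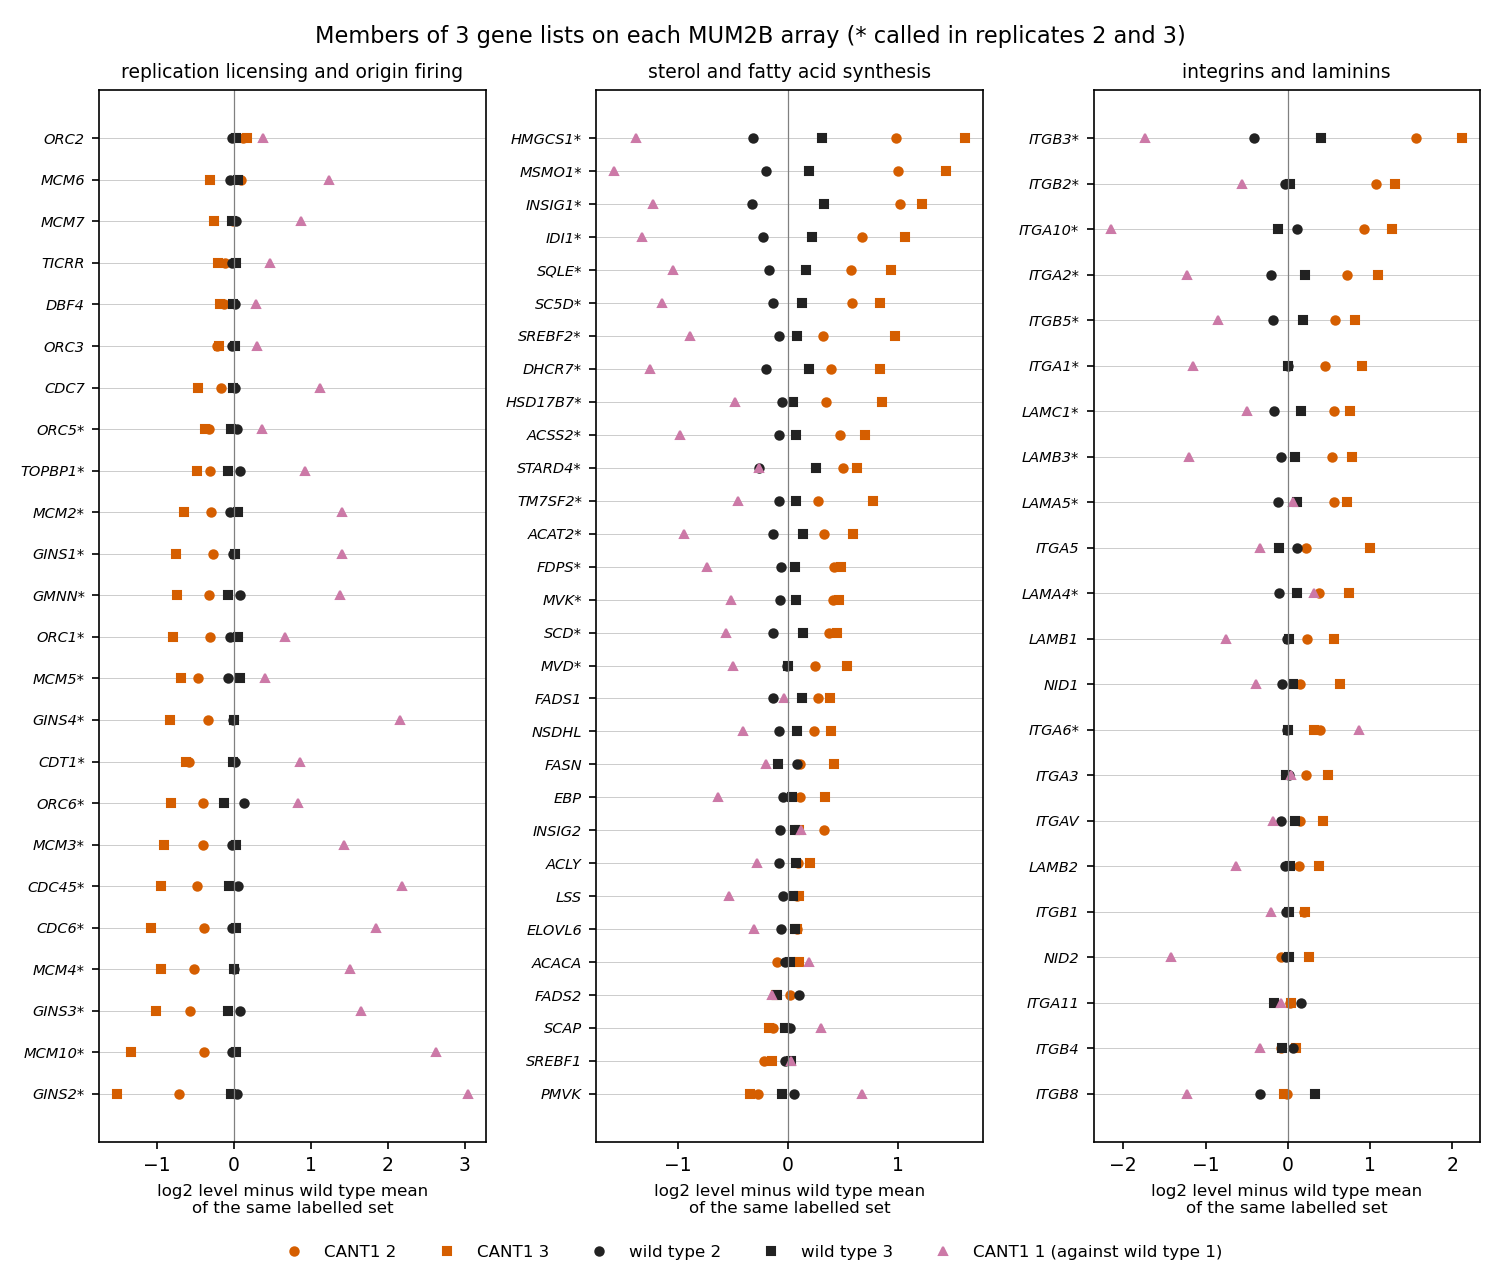
Each row is 1 tested gene of the replication licensing (24), sterol and fatty acid synthesis (30) or integrin and laminin (22) list, and the x axis is the log2 level minus the wild type mean of the same set, for wild type 2 and 3 (black), CANT1 2 and 3 (orange) and CANT1 1 (purple triangles). Asterisks mark the 17, 17 and 11 genes called, and for GINS2 CANT1 2 and 3 lie left of the wild type arrays and CANT1 1 lies at 3.04.

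DNA replication genes fell. Cells license origins in G1 by loading the MCM2 to MCM7 helicase with ORC, CDC6 and CDT1, fire them in S phase with CDC45 and the GINS complex, and copy DNA with polymerases held by the PCNA clamp. E2F factors switch most of these genes on late in G1. Of 24 licensing and firing genes tested 17 fell and 0 rose (median −0.54), of 30 polymerase and fork genes 14 fell and 0 rose (median −0.46), and of 20 nucleotide synthesis genes 9 fell and 0 rose (median −0.27), against 9.36% falling over all genes. On replicate 1 the medians were 1.18, 1.33 and 0.92. The decreases numbered 4, 4 and 1 without wild type 2, 7, 9 and 4 without wild type 3, and 6, 8 and 2 without CANT1 3. They numbered 18, 22 and 10 without CANT1 2, and licensing genes 11 on deposited values.

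GINS2, a subunit of the replicative helicase, had the steepest fall among the licensing genes, with signals of 1233 and 1165 on the wild type arrays and 717 and 397 on the CANT1 arrays (−1.12 ± 0.21, limma adjusted p = 0.00848). On replicate 1 it read 78.6 on wild type and 879 on CANT1, the largest increase there (3.04). The helicase subunit gene MCM4 fell by 0.74 ± 0.14 from 6341 and 6389.5 to 4425 and 3270.1. In both genes CANT1 3 was lower than CANT1 2. MCM10 (−0.86 ± 0.24), CDC6 (−0.74 ± 0.19) and GINS3 (−0.80 ± 0.15) fell too, and under at least 1 alternative (leaving out wild type 2 in each case) they were no longer called, at adjusted p up to 0.116, 0.0947 and 0.0551.

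At the fork, FAM111B, a protease gene expressed in S phase, fell by 1.50 ± 0.18 from 298 and 304 to 115 and 62.1 (limma adjusted p = 0.00203). TIPIN, which stabilises stalled forks, fell by 1.07 ± 0.16, and POLE2, a subunit of the leading-strand polymerase, by 0.83 ± 0.17. UHRF1, which brings the DNA methyltransferase to new strands, read 4528 and 4177 on the wild type arrays and 3068 and 2059.6 on the CANT1 arrays (−0.78 ± 0.17), and the clamp loader gene RFC3 fell by 0.75 ± 0.14. UHRF1 and RFC3 were no longer called without wild type 2 (adjusted p = 0.0770 and 0.0516). In the nucleotide list CTPS1, which makes CTP, fell by 0.71 ± 0.12. UNG, counted in that list although it is a repair enzyme that removes uracil from DNA, fell by 0.85 ± 0.15. With 1 array left out its difference ran from −1.09 to −0.60, and it was no longer called without wild type 2. TK1, the S phase thymidine kinase, was at −0.69 ± 0.17 here and read 789.6 on wild type 1 and 4339 on CANT1 1, and its call ended without wild type 2, wild type 3 or CANT1 3 (adjusted p up to 0.0787).

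Promoters of 4 replication genes are shown because they hold the E2F motif, the letters TTTNNCGC read on either strand. As above they are the 100 bases before the start from RefSeq on GRCh38.p14, with the motif in capitals, at chr16:85688955-85689054 (minus strand), chr14:49688215-49688314 (minus), chr19:4909401-4909500 (plus) and chr13:33818049-33818148 (plus).
GINS2: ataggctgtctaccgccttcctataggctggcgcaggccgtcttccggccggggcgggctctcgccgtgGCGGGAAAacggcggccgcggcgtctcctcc
POLE2: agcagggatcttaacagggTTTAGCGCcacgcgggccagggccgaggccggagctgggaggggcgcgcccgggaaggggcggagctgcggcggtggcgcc
UHRF1: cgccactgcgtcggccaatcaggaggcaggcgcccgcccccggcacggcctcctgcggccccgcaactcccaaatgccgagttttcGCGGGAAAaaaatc
RFC3: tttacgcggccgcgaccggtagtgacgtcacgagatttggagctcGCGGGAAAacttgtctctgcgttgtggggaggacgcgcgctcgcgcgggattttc
Each holds 1 match in this stretch, starting 31, 81, 14 and 55 bases before the start. The motif occurred in the 250 bases before the start of 16 of the 46 replication genes in the promoter table (34.8%). It occurred in 9.02% of genes tested and in 5.93% of all promoters. Among the genes called it occurred in 13.3% of those lower and 6.18% of those higher. For the mitosis genes described next, the CHR letters TTTGAA occurred in 20 of 36 promoters (55.6%, against 8.31% of genes tested) and CCAAT in 26 of 36 (72.2%, against 35.0%). These shares do not say which factor was bound in MUM2B.

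Of 42 mitosis and spindle genes 4 fell (9.52%, against 9.36% of all genes) and 2 rose (4.76%, against 13.1%), with a median of −0.089. With 1 array left out, 1 fell and 1 rose without wild type 2, without wild type 3 and without CANT1 3. ESPL1, the protease separase that splits sister chromatids, rose by 0.77 ± 0.12, while the condensin gene NCAPG fell by 0.84 ± 0.14. On replicate 1 the median of the mitosis list was 0.63. Of 25 genes for G1 cyclins, CDK inhibitors and E2F factors 11 fell and 3 rose, and 3 fell without wild type 2 and 7 without probe sets that can bind related transcripts.

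CCNE2, a cyclin that opens S phase, read 1063 and 976 on the wild type arrays and 469 and 231 on the CANT1 arrays (−1.53 ± 0.24, limma adjusted p = 0.00442) and 231 and 1579 on wild type 1 and CANT1 1. CDKN1C, the CDK inhibitor p57, rose by 1.24 ± 0.18 from 211 and 292 to 526 and 751, and CDKN2D, the inhibitor p19, by 0.88 ± 0.12. TFDP1, the partner of E2F factors, fell by 0.82 ± 0.16 from 5717 and 5338, with probe sets from −0.82 to 0.039 (adjusted p = 0.0536 without wild type 2). Of 27 DNA repair genes 6 fell and 1 rose, with 0, 3 and 2 decreases without wild type 2, wild type 3 and CANT1 3. RAD51AP1, which assists strand exchange, was at −0.81 ± 0.17 and lost its call without wild type 2 (adjusted p = 0.0775), and the increase was of the checkpoint kinase CHEK2 (0.62 ± 0.11). Of 23 p53 target genes 4 rose (17.4%, against 13.1%) and 1 fell (4.35%, against 9.36%), with 7 increases without wild type 3, 2 without probe sets that can bind related transcripts and 0 decreases without wild type 2, wild type 3 or CANT1 3. CDKN1A, the p53-induced inhibitor p21, was at 0.39 ± 0.11, and its call ended without wild type 2, without CANT1 3, on deposited values and under 3 other alternatives (adjusted p up to 0.273).

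Of 74 mitochondrial ribosomal protein genes 15 fell (20.3%, against 9.36% of all genes) and 0 rose, with a median of −0.23 and 0.26 on replicate 1. The count was 1 without wild type 2, 7 without wild type 3, 2 without CANT1 3, 9 on deposited values, 23 with the 8 arrays of both lines and 27 with an intensity trend. MRPL1 fell most, from 1278 and 1165 to 615 and 372 (−1.29 ± 0.19, limma adjusted p = 0.00360). Of 69 cytosolic ribosomal protein genes 1 rose and 3 fell (4.35%, below the 9.36%), with a median of 0.0080. Without wild type 2 these counts were 0 and 1, and without probe sets that can bind related transcripts 4 and 8. RPL27A fell by 1.36 ± 0.10, from 364 and 360.3 to 122 and 121. It was read by 1 probe set, far dimmer than that of RPL22, which may not measure the main transcript of the gene. RPL22, a gene with a difference near zero, read 34104 and 32367 on the wild type arrays and 32385 and 33953 on the CANT1 arrays. Of 84 respiratory chain and ATP synthase genes 6 fell (7.14%) and 1 rose (1.19%), with 0 decreases without wild type 2, 3 without wild type 3, 2 without CANT1 3 and 19 with an intensity trend.

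Of 37 genes of the unfolded protein and ATF4 responses 6 fell (16.2%, against 9.36%) and 2 rose (5.41%, against 13.1%). Without wild type 2 the counts were 2 and 0, and without CANT1 3 they were 4 and 1. SLC7A5, the large neutral amino acid transporter, fell by 0.92 ± 0.12 from 2232 and 1898 to 1155 and 1000.0, and PSAT1, a serine synthesis enzyme, by 0.85 ± 0.15 from 9246 and 8518 to 5777 and 4182. Of 24 heat shock genes 1 rose (4.17%) and 2 fell (8.33%), both below the shares of all genes. Of 22 polycomb and DNA methylation genes 6 fell and 2 rose, and 2 fell without wild type 2, 3 without wild type 3 and 3 without CANT1 3. The polycomb shares were 27.3% lower and 9.09% higher, against 9.36% and 13.1% of all genes. EZH2, the histone methyltransferase of polycomb, fell by 0.75 ± 0.13 and PHF19, its chromatin reader, by 0.79 ± 0.11, while CBX7 rose by 1.02 ± 0.15. Of 20 small nucleolar RNA and host genes 6 fell and 0 rose, with 3 without wild type 2 and 3 without CANT1 3.

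In the lists of developmental signalling more genes were called higher than lower. The shares were 31.0% higher and 3.45% lower for Wnt, 31.25% and 6.25% for TGF-β and BMP, and 31.0% and 0% for axon guidance. Over all genes they were 13.1% and 9.36%. Of 29 Wnt genes tested (47 listed) 9 rose and 1 fell, and 3 rose without wild type 2. The increases included the secreted antagonists DKK2 (1.24 ± 0.22) and DKK3 (1.06 ± 0.12, from 676 and 809 to 1507 and 1645), and TLE4, a corepressor, fell by 0.83 ± 0.11. Of 32 TGF-β and BMP genes 10 rose and 2 fell, with 2 increases without wild type 2, 3 without CANT1 3 and 6 on deposited values. ID3, a BMP target that blocks differentiation factors, fell by 0.98 ± 0.12 from 2598 and 2418 to 1369 and 1146, and the co-receptor gene TGFBR3 rose by 0.89 ± 0.15. Of 42 axon guidance genes tested (68 listed) 13 rose and 0 fell, with 5 without wild type 2 and 7 without CANT1 3, among them the semaphorin gene SEMA4B (0.85 ± 0.10) and the guidance ligand SLIT2 (0.88 ± 0.15).

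Among 27 genes of vessel formation and vascular mimicry (36 listed) 12 rose and 3 fell, with 5 increases without wild type 2 and 7 without CANT1 3. The lymphatic growth factor VEGFC rose by 1.10 ± 0.13 from 414 and 435 to 828 and 1087, its co-receptor NRP2 by 1.12 ± 0.16 and the Notch target HEY1 by 1.29 ± 0.17. EDN1 was 1 of the 3 decreases. The shares of this list were 44.4% higher and 11.1% lower, against 13.1% and 9.36% of all genes. Of 13 genes that separate the prognostic classes of uveal melanoma 7 rose and 0 fell, with 1 without wild type 2, 2 without CANT1 3 and 4 on deposited values. SATB1, a chromatin organiser in that list, rose by 0.98 ± 0.16 from 270.2 and 302 to 493 and 713. The increases were 53.8% of the class genes tested. Of 33 hypoxia and glycolysis genes 7 rose and 0 fell, with NDRG1 at 1.15 ± 0.15, and the count was 1 without wild type 2, 4 without CANT1 3, 2 on deposited values and 3 with no filter on dim genes. In the hypoxia and glycolysis list 21.2% rose, against 13.1% of all genes. STC1, a secreted glycoprotein hormone, rose by 1.47 ± 0.16.

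The plot of gene lists sets these counts side by side. In it cytokine, quiescence, sterol, ERK, NF-κB and integrin genes stand to the right and replication genes to the left, and the replicate 1 medians lie on the other side of zero for each of them.

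**Figure D4:**
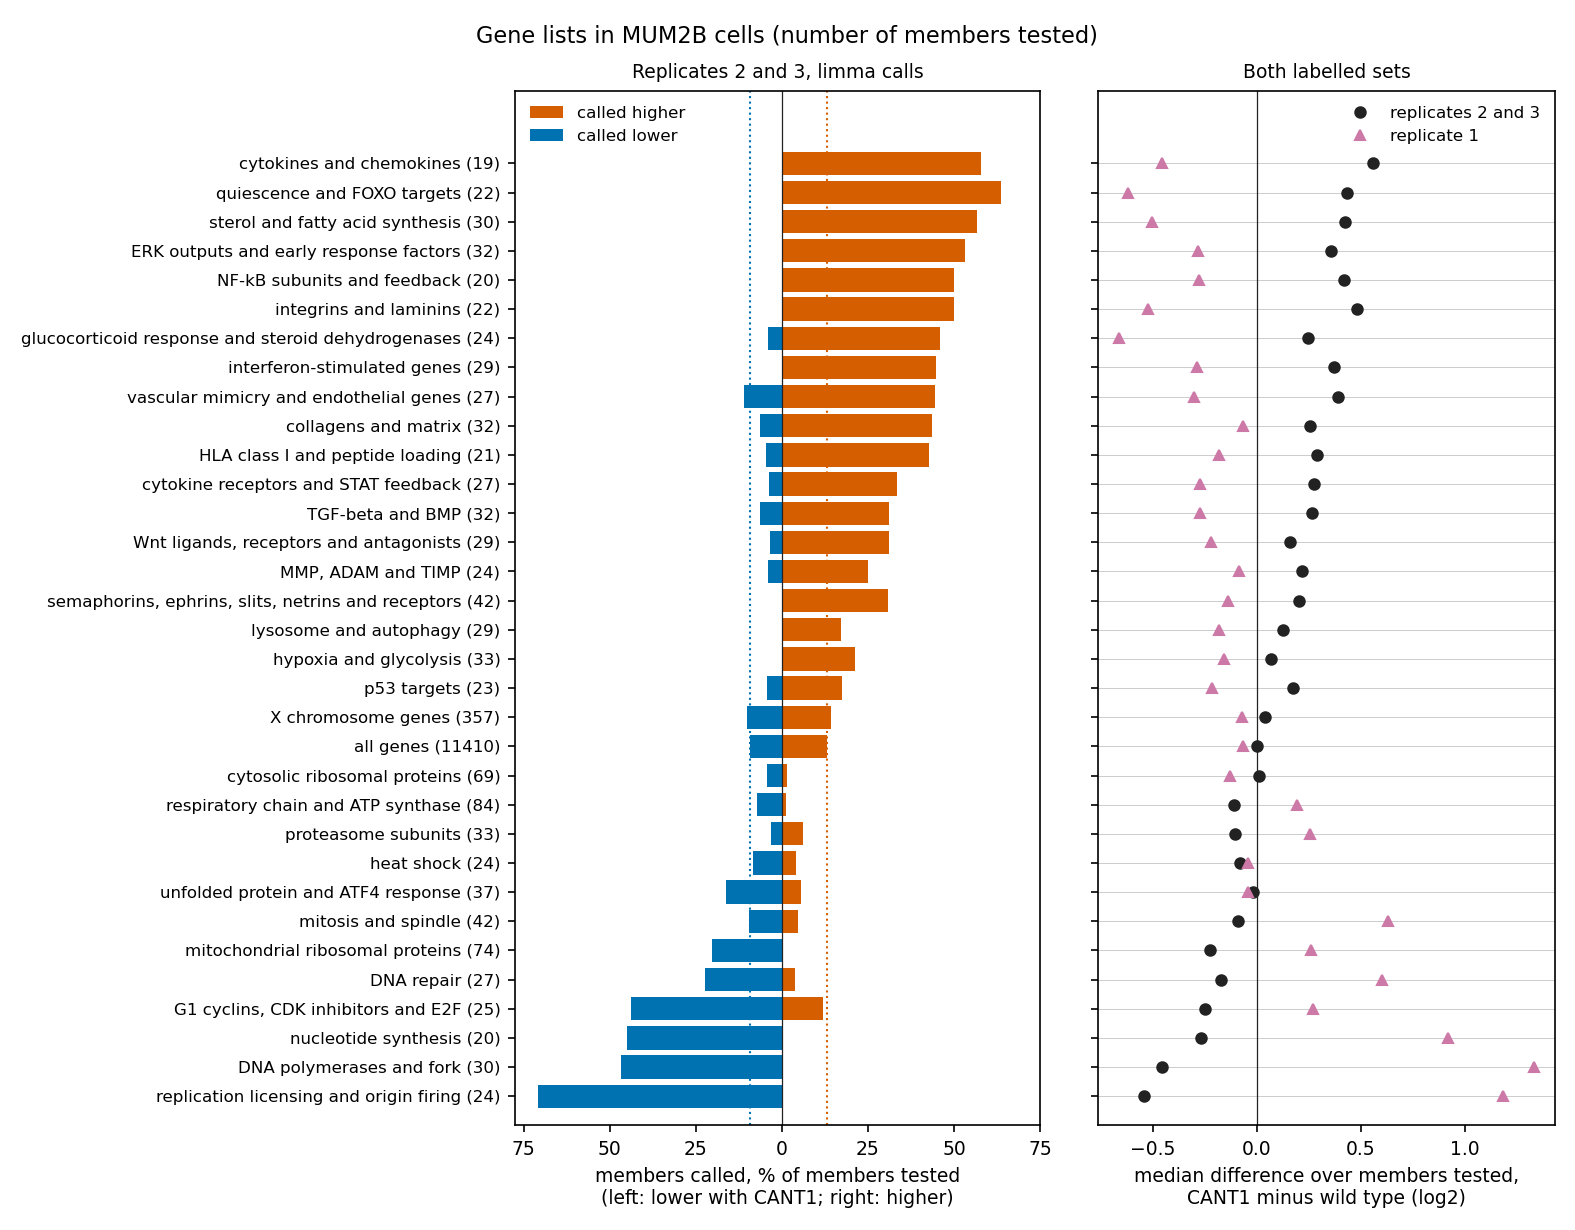
Left, the percentage of tested members of each list that limma called higher (right of zero) or lower (left) on replicates 2 and 3, with dotted lines at the share of all 11410 genes (13.1% and 9.36%). Right, the median CANT1 minus wild type difference (log2) of the members on replicates 2 and 3 (circles) and on replicate 1 (triangles), at −0.54 and 1.18 for replication licensing and at 0.42 and −0.50 for sterol synthesis.

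Of 15 insulin-like growth factor and stanniocalcin genes 5 rose and 3 fell (1 and 2 without wild type 2), of 29 apoptosis genes 7 rose and 1 fell (3 higher without wild type 2), and of 13 epithelial-mesenchymal transition genes 4 rose and 0 fell (1 higher without wild type 2). CFLAR, an inhibitor of death receptor signalling, rose by 1.02 ± 0.16 and BCL2A1, a survival gene of the BCL2 family, by 0.87 ± 0.13. Of 20 HOX genes 6 rose and 1 fell, with 0 higher without wild type 2 and 1 without CANT1 3. Of 218 solute carrier genes 34 rose (15.6%) and 18 fell (8.26%), near the shares of all genes, and 7 and 3 did so without wild type 2.

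Markers of other cell types were few. Of 7 fibroblast markers 0 passed the filter on dim genes and of 7 immune markers 1 was tested and not called, with no signal above 149 and 133. Of 7 epithelial markers 2 rose of 4 tested, with a summed signal of 987 to 1007 on wild type 2 and 3 and 1593 to 1753 on CANT1 2 and 3, while EPCAM and CDH1, which define epithelium, were too dim to test. The claudin gene CLDN4 rose by 1.22 ± 0.12 and KRT19 by 0.61 ± 0.12, KRT19 losing its call without wild type 2. KRT5 and KRT14, the other 2 tested, were not called. Under the alternatives KRT5 ran from −0.59 to −0.13 and KRT14 from −0.034 to 0.11. Of 15 keratin genes 2 rose and 2 fell (13.3% each way, against 13.1% and 9.36% of all genes). KRT7 and KRT80 (−0.90 ± 0.11) were the decreases, and KRT7 lost its call without wild type 2. Of 7 endothelial markers 2 rose of 5 tested, CDH5 and KDR, with a summed signal of 2913 to 3444 on wild type and 4799 to 5237 on CANT1. KDR was at 0.42 ± 0.11 (adjusted p up to 0.117 with 1 array left out), and the increases numbered 0 without wild type 2, 1 without wild type 3 and 1 without CANT1 3. TFAP2A, a neural crest factor, rose by 0.96 ± 0.17 from 63.0 and 75.4, and was too dim to be tested without CANT1 2 or without CANT1 3. It was the 1 called of 5 neural crest markers tested, of which 2 were above zero and 3 below. The part of these markers in the other results was not tested.

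A minority of genes kept the same direction in both sets. Of the 1494 genes called higher 41, and of the 1068 called lower 4, had a replicate 1 difference of the same sign and of at least 0.5. The genes named here were picked for that, so their shared direction is a description. COL6A3 and HSD17B2, described above, led the increases. TMEM200A, a transmembrane protein gene, read 153 and 199 on the wild type arrays and 360.0 and 327 on the CANT1 arrays, and 157 on wild type 1 and 523 on CANT1 1 (0.86 ± 0.13 on replicates 2 and 3 and 1.55 on replicate 1). IFI44, an interferon-induced gene, read 158 and 203 on the wild type arrays and 417 and 389 on the CANT1 arrays, and 390.1 on wild type 1 and 767 on CANT1 1. CCNA1, a cyclin otherwise known from the testis, rose by 0.83 ± 0.15 (0.85 on replicate 1). NMNAT2, an axonal NAD synthase, rose by 0.75 ± 0.10 (0.68).

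The Eph receptor genes EPHA4 (0.66 ± 0.12, 1.28 on replicate 1) and EPHB1 (0.63 ± 0.11, 0.72) shared a direction as well, and EPHA4 was no longer called without wild type 2 (adjusted p = 0.0557). The 4 decreases were BCAR3 (−0.53 ± 0.10, −0.68), MAP7D3 (−0.43 ± 0.10, −0.52), IFRD1 (−0.36 ± 0.10, −0.69) and OGFRL1 (−0.35 ± 0.10, −0.56). Each of these 4 calls ended without wild type 2 and under up to 5 other alternatives, at adjusted p up to 0.0792, 0.106, 0.208 and 0.170. These genes were picked for being called and for sharing the sign on replicate 1, so their separation in both sets is no added evidence. The replicate 1 side rests on 1 array a group.

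The largest differences on replicate 1 had no test of their own. On that pair 2.98% of genes were at least 2-fold higher with CANT1 and 2.08% at least 2-fold lower. The 8 largest increases were GINS2, MCM10, CCNE2, GDAP1, FAM111B, POLE2, ESCO2 and FERMT1, of which ESCO2, a cohesin acetyltransferase of S phase, went from 212 to 1379. The 8 largest decreases were TXNIP, XIST, FGFBP1, GBP2, KLF9, ITGA10, YPEL2 and KLHL24. FGFBP1, a carrier of fibroblast growth factors, went from 5329 on wild type 1 to 717 on CANT1 1, and rose by 1.23 ± 0.33 on replicates 2 and 3. The highest adjusted p under the alternatives was 0.0758 for FGFBP1, 0.116 for MCM10 and 0.116 for GDAP1. All 16 genes were called in the opposite direction on replicates 2 and 3. The calls of MCM10, GDAP1 and FGFBP1 ended on deposited values, with no filter on dim genes and without wild type 2. Those of MCM10 and GDAP1 ended without wild type 3 too, and that of MCM10 also without CANT1 3 and with an offset of 8. The replicate 1 difference minus that of replicates 2 and 3 came to −7.36 for TXNIP and 4.16 for GINS2, descriptions of genes chosen for their size on replicate 1.

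Compared with OCM1 on replicates 2 and 3, the MUM2B difference was higher for 1306 genes and lower for 1382 (21.8% of 12320, limma interaction). The counts were 806 higher without MUM2B wild type 2, 823 without MUM2B CANT1 3, 757 without OCM1 wild type 3, and 856 higher and 894 lower without OCM1 CANT1 2. Among the genes furthest apart upward were CASP1, INSIG1, SLC14A1, TXNIP and HSD11B1. SLC14A1 differed by 2.50 ± 0.15 in MUM2B and 0.0037 in OCM1 (line difference 2.50 ± 0.21, adjusted p = 3.76e-05). CASP1, the protease that matures interleukin-1β, rose by 1.20 ± 0.19 in MUM2B against −1.75 in OCM1 (2.94 ± 0.25, adjusted p = 4.34e-05). INSIG1 gave 2.65 ± 0.30, TXNIP 2.43 ± 0.59 and HSD11B1 2.43 ± 0.30.

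In the other direction stood genes that were higher with CANT1 in OCM1 and not called in MUM2B. SYTL2, a vesicle transport adaptor, differed by −0.15 ± 0.11 in MUM2B against 4.83 in OCM1, a line difference of −4.99 ± 0.16 (limma adjusted p = 2.22e-08). SFRP1, a secreted Wnt antagonist, was already bright in MUM2B (6740.2 and 6609 on the wild type arrays and 6632 and 6487 on the CANT1 arrays) and gave a line difference of −3.20 ± 0.13. UCHL1 and CA2 gave −2.92 ± 0.16 and −2.57 ± 0.20. SLC26A2 fell in MUM2B and was higher in OCM1 (1.77), a difference of −2.85 ± 0.16. XIST, EGR1 and HLA-B had the same sign in both lines, at 4.33 and 5.88, 2.04 and 2.35, and 1.35 and 1.49.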

How the data were processed

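The deposited value table held 1 value per probe set and array. The authors deposited values that were read as log2, since their base is not stated; MAS5 is named in the submitters' processing notes, with no version or further step given in the sources used here. Of 49395 probe sets 102 were controls, 44988 named 1 gene, 1832 several and 2473 none in the platform annotation, and only those of 1 gene were used (44961 symbols were updated by gene identifier). Each array was returned to the linear scale, scaled to a 2% trimmed mean of 500 and expressed as log2 of the signal plus 32. The brightest probe set over the 6 MUM2B arrays stood for each of 18132 genes, and 11410 whose signal reached 100 on 2 or more of the 4 arrays entered lmFit and eBayes of limma 3.58.1 (R 4.3.3), with Benjamini-Hochberg adjustment at 0.05. The number of arrays limits the precision.

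Differences between sets and between lines were limma interaction terms. On simulated data with 200 changed genes, limma found 99.8% of those changed by 1 (log2) in the contrast of replicates 2 and 3. Of its calls there 6.49% were false. In the contrasts of sets and of lines it found 90.7% and 98.4%, with 7.07% and 5.53% false among its calls. How these shares hold where as many genes differ as the 2562 called on replicates 2 and 3 was not tested. Named genes were the 15 largest calls in each direction, up to 5 called members of each list, up to 8 in each direction shared by both sets, the 8 largest each way on replicate 1 and the 5 largest line differences each way. A few of those are not described. The members and the gene lists were chosen with earlier results of these data known, the X chromosome lists after the values of XIST were seen, and some genes are in several lists. Promoter sequences are from a RefSeq table on GRCh38.p14, matched by symbol.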

Additional observations from a re-analysis of the deposited data

Results flagged for a closer look

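The CANT1 difference in MUM2B was unlike on the 2 sets of arrays. Limma's interaction term takes its spread from replicates 2 and 3, since replicate 1 has 1 array a group and was assumed to vary like the others, so its errors do not measure the variation of replicate 1. By that term the difference was higher on replicate 1 than on replicates 2 and 3 for 2026 genes and lower for 2032. Among the named genes the replicate 1 difference minus that of replicates 2 and 3 was −7.36 for TXNIP, −4.69 for KLF9 and −3.85 for PLAT, which rose on replicates 2 and 3. It was 4.16 for GINS2, 4.14 for CCNE2 and 4.04 for FAM111B, which fell there. The ACTB 3′ over 5′ signal separates the same sets (log2 2.15 to 2.33 on replicate 1, 0.473 to 0.584 on replicates 2 and 3), as do the labelled culture conditions, and their part in the difference was not tested.

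The difference also differed between the cell lines by limma's interaction term on replicates 2 and 3, with 2 arrays a group in each line, with 1306 genes higher in MUM2B than in OCM1 and 1382 lower. The MUM2B minus OCM1 value was 2.94 ± 0.25 for CASP1, 2.65 ± 0.30 for INSIG1, 2.50 ± 0.21 for SLC14A1, 2.43 ± 0.59 for TXNIP and 2.43 ± 0.30 for HSD11B1. It was −4.99 ± 0.16 for SYTL2, −3.20 ± 0.13 for SFRP1, −2.92 ± 0.16 for UCHL1, −2.85 ± 0.16 for SLC26A2 and −2.57 ± 0.20 for CA2.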

How the results depend on the processing

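On replicates 2 and 3 the counts of 1494 higher and 1068 lower stayed within 1.5 times under another normalization, offset, filter or variance model. The same held with the 8 arrays of both lines. The share of the 2562 calls that recurred in the same direction on the same probe set ran from 64.6% to 99.9%. The 64.6% came without probe sets that can bind related transcripts, where a gene read by a probe set left out could not recur. Counted over every probe set, they were 3166 and 2486, those between sets 4542 and 4269 and those between lines 3186 and 3053, where more features were tested. With 1 array left out they ran from 432 to 1752 higher and from 179 to 1373 lower, those between sets from 1500 to 2237 and 1467 to 2365, and those between lines from 757 to 1349 and 894 to 1397. The lone array of a group was then assumed to vary like the others. Of 244 named genes called, 211 were tested under all 16 alternatives other than the set term and 119 of those were called under each. The other 33 were not tested under some of them, and 20 of these were called wherever they were tested. In all 101 were lost when some 1 array was left out. A dim signal limits what could be seen, since the offset of 32 shrinks its differences.

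With all 6 MUM2B arrays and a set term 0 genes were called in either direction. There 23 genes changed sign, at differences of GINS2 0.27, MCM10 0.30, GINS3 0.019, MCM4 0.012, CDC6 0.12, POLE2 0.29, UHRF1 0.20, CTPS1 0.021, TK1 0.34, RAD51AP1 0.13, BRCA1 0.15, NDC80 0.13, CDC25A 0.077, TP53I3 0.083, MRPS25 0.16, MRPS11 0.0077, H2AX 0.067, SNORD17 0.036, GDAP1 0.22, ESCO2 0.28, ADM −0.15, HOXB3 −0.13 and FGFBP1 −0.13. The replicate 1 arrays that this fit adds have the opposite sign for these genes. Without probe sets that can bind related transcripts the signs of KCNMA1 (0.0055), TEAD1 (−0.068), TWIST2 (−0.48), DNAJB6 (−0.0047) and RPS28 (−0.43) changed, since another probe set then stood for the gene.

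Replicate numbers 2 and 3 were not taken to pair the arrays (the deviations of same-numbered arrays correlated at r = 0.207, from 2 pairs). With a replicate block the counts were 1938 higher and 1447 lower, with all 2562 calls shared, and between lines 1341 and 1440.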
